A study of Mus musculus with 11 samples.

Results

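The genes described here are 9 marker genes of medium spiny neurons, the projection neurons of the striatum, measured in RNA that the labels describe as cortex. They are Drd1, Drd2, Adora2a, Gpr6, Penk, Ppp1r1b, Rgs9, Pde10a and Rxrg. They were chosen by their log2 ratios in earlier results of these data, which put them at low levels in transgenic mice with and without an injury, so their values in those mice describe the choice and are given with no test. The RefSeq accessions on the arrays tied 14 probes to the 9 genes. After a filter on dim probes the whole table held 25999 features, 1 probe per gene or unnamed accession, and all 9 genes were among them.

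The samples came from 22 C57/Bl6J mice between 5 and 7 months of age. Each of 11 Agilent 2-colour arrays carried 1 mouse in Cy5 and 1 in Cy3. Cortex of the right hemisphere was used throughout. TC mice (n = 6) carried the GFA2-tTa/TetO-VP16-CREB transgene pair and a cryolesion, T mice (n = 5) carried the same transgenes and no injury, WTC mice (n = 5) were wild type with a cryolesion, and WT mice (n = 6) were wild type and intact. The pair places VP16-CREB, CREB made permanently active by a viral activation domain, in astrocytes, and was not directed to neurons. The cryolesion was a cold injury by dry ice held on the brain surface for 30 s, and injured mice were killed 3 days later. No mouse sat on more than 1 array, although the series' design text speaks of 4 hybridisations per sample.

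Medium spiny neurons use GABA as their transmitter and make up most neurons of the striatum, a nucleus that lies under the cortex and receives dopamine from the midbrain. They form a direct pathway, marked by the dopamine receptor D1, and an indirect pathway, marked by the dopamine receptor D2, an adenosine receptor and enkephalin. Both pathways signal through cyclic AMP, which protein kinases carry on to DARPP-32 and to CREB. Neurons of the cortex carry some of these transcripts at low levels.

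Several libraries need a remark before the values. The channel 2 labels of arrays I and K call their TC mice T, and those of array J call its T mouse TC. Groups here follow the titles. For the disputed mice of arrays J and K, the reactive astrocyte genes given below match the titles and not the channel 2 labels. For that of array I they lay between injured and intact mice. All 6 WT mice were on the first slide, together with 3 T, 2 WTC and 1 TC mice, so slide and group overlap in part. The cortical label was checked against marker genes of cortical excitatory neurons. The vesicular glutamate transporter gene Slc17a7 and the transcription factor genes Tbr1 and Neurod6 were well above background in all 22 channels. The TC mouse of array I stood apart in these, with a Tbr1 log2 level of 7.38 against 11.21 or more in the other TC mice, and a Neurod6 level of 7.36 against 10.14 or more.

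Because the transgene is a form of CREB, the 250 bases before the start sites of the genes were searched for the cyclic AMP response element TGACGTCA, its shorter form TGACG, the GC box GGGCGG and TATAAA, on both strands. The shorter form lies within the full element, so each full match also counts as 2 short ones. The promoter table held Drd1, Drd2, Gpr6, Rgs9, Pde10a and Rxrg, with 9 start sites between them. Adora2a, Penk and Ppp1r1b were not analysed here in this way. Across the 32851 promoters of the table, 1.55% held the full element, 17.8% the shorter form, 32.7% the GC box and 12.4% TATAAA. Only Gpr6 among these 6 genes held the full element, starting 78 bases before its start site. The GC box stood before a start site of Drd1, Drd2, Rgs9 and Pde10a. Rgs9 alone held TATAAA, starting 195 bases before its start. The following 3 are printed because one holds the CREB element, one holds a GC box and TATAAA, and one holds none of the letters searched, while all 3 genes varied together between mice. The Drd1 sequence belongs to the outer of its 2 start sites. Sequences are RefSeq's on GRCm38.p6, 5′ to 3′ on the strand of the gene, and end 1 base before the start site. Capitals mark the full CREB element and the GC box.
Gpr6, chr10:41072291-41072540, minus strand: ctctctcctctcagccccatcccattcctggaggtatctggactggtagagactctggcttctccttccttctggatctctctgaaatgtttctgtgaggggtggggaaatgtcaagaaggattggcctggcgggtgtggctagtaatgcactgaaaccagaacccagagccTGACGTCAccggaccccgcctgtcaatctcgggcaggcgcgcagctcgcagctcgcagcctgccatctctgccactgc
Rgs9, chr11:109298182-109298431, minus strand: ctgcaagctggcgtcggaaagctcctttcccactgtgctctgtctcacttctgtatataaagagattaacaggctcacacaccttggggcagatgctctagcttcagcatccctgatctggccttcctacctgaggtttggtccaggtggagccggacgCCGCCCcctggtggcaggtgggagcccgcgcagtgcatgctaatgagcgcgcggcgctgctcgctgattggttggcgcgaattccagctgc
Drd1, chr13:54055659-54055908, minus strand: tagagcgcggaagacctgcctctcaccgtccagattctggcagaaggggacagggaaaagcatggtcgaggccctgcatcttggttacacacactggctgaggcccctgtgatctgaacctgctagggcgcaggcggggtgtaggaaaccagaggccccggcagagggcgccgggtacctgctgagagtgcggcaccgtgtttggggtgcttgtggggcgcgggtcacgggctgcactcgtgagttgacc
A match describes letters only, and none of these arrays measured binding at a promoter.

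Levels below are log2 intensities of 1 channel after normalization, with the dye effect of each probe removed. They compare mice for 1 gene, and do not compare genes, since probes differ in brightness. In whole tissue, fewer neurons of a type and less RNA per neuron cannot be told apart.

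The receptor genes come first. Drd1 encodes the D1 dopamine receptor of the direct pathway. Its log2 level ran from 6.73 over a median of 8.03 to 9.88 in TC mice, and was 10.23, 9.89, 7.54, 10.13 and 10.23 in the T mice of arrays D, E, F, I and J. It was 7.20, 9.89, 8.29, 9.77 and 10.15 in the WTC mice of arrays A, B, K, L and M, against 7.45 to 11.28, with a median of 10.53, in WT mice. The TC mice were low except that of array J, and single low mice were found in the other groups too, namely those of array F in T, arrays A and K in WTC and array A in WT. The groups overlapped.

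Drd2 encodes the D2 receptor of the indirect pathway and had the dimmest of the probes used. The probe was well above background in 4 of 6 TC, 5 of 5 T, 4 of 5 WTC and 6 of 6 WT channels. Its log2 level lay between 6.20 and 7.56 in TC mice, with a median of 6.41, and was 7.98, 7.58, 6.37, 7.69 and 7.39 in T mice. WTC mice had 6.21, 7.53, 6.42, 7.18 and 7.10, against 6.75 to 8.59 with a median of 8.21 in WT mice. The TC mouse of array I, with 7.56, was the highest TC mouse for this gene but among the lowest for Drd1 (7.08), and the groups again overlapped.

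Adora2a encodes an adenosine receptor that raises cyclic AMP in indirect pathway neurons. TC mice spanned 7.32 to 10.83 around a median of 8.11, and the T mice had 11.01, 10.12, 7.30, 10.44 and 11.11. Levels in WTC mice were 6.90, 11.58, 8.21, 10.30 and 12.45, against 7.72 to 11.92 with a median of 11.31 in WT mice. WTC mice held both the lowest and the highest level of all 22, those of arrays A and M, 5.54 log2 units apart.

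Gpr6, a constitutively active receptor found mostly on indirect pathway neurons, ran from 6.85 over 7.83 to 9.40 in TC mice and had 9.89, 9.54, 7.27, 9.59 and 9.53 in T mice. In WTC mice it had 7.02, 9.33, 7.62, 8.90 and 9.16, against 7.46 to 10.59 with a median of 10.21 in WT mice. The 4 WT mice of arrays B to E, from 10.13 to 10.59, were above every other mouse.

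Penk makes the precursor of the enkephalin peptides, the cotransmitters of the indirect pathway, and has a known CREB-responsive enhancer. Its level in TC mice ran from 10.99 over 12.12 to 14.81, and was 15.06, 14.65, 12.50, 14.87 and 15.41 in T mice. WTC mice had 12.23, 15.32, 12.87, 15.07 and 15.79, against 12.48 to 16.32 with a median of 15.56 in WT mice. The TC mice of arrays K, M and C held the lowest levels of all 22, at 10.99, 11.47 and 12.09, while the TC mice of arrays I and J had 13.98 and 14.81.

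The signalling genes inside the cell followed the same mice. Ppp1r1b encodes DARPP-32, a phosphatase inhibitor that dopamine switches through protein kinase A. It ranged from 12.67 over 13.29 to 14.92 in TC mice and was 15.33, 14.58, 12.47, 14.60 and 15.25 in T mice. WTC mice had 11.96, 15.07, 13.61, 15.09 and 15.87, against 12.31 to 16.16 with a median of 15.54 in WT mice. The lowest level of all was in the WTC mouse of array A, and the WT mouse on that array, at 12.31, came next.

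Rgs9, whose brain isoform shortens dopamine receptor signals, had 10.31 to 13.15 in TC mice with a median of 11.12, and 13.65, 13.08, 10.52, 13.18 and 13.22 in T mice. Levels were 9.72, 13.29, 11.75, 13.44 and 14.41 in WTC mice, against 10.46 to 14.80 with a median of 14.05 in WT mice. The lowest level was that of the WTC mouse of array A, followed by the TC mouse of array L, the WT mouse of array A and the T mouse of array F, so each group held one of the 4 lowest mice.

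Pde10a encodes the phosphodiesterase that breaks down cyclic nucleotides in both pathways. It had 10.76 to 12.91 in TC mice with a median of 10.86, and 13.18, 12.53, 10.31, 12.55 and 13.13 in T mice. In WTC mice it had 11.34, 12.97, 11.10, 12.83 and 13.63, against 11.92 to 14.29 with a median of 13.46 in WT mice. For Pde10a 5 of the 6 TC mice lay within 10.76 to 10.95, below every WTC and WT mouse, and the sixth, of array J, overlapped all other groups.

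Rxrg encodes a retinoid X receptor, a nuclear receptor that partners the retinoic acid receptors of the striatum. TC mice had 10.30 to 12.43 with a median of 10.74, and T mice 13.02, 12.42, 9.38, 12.73 and 12.12. Levels were 8.20, 11.71, 10.93, 12.55 and 13.25 in WTC mice, against 10.74 to 14.18 with a median of 13.28 in WT mice. The low extremes were the WTC mouse of array A and the T mouse of array F, not TC mice.

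**Figure D1:**
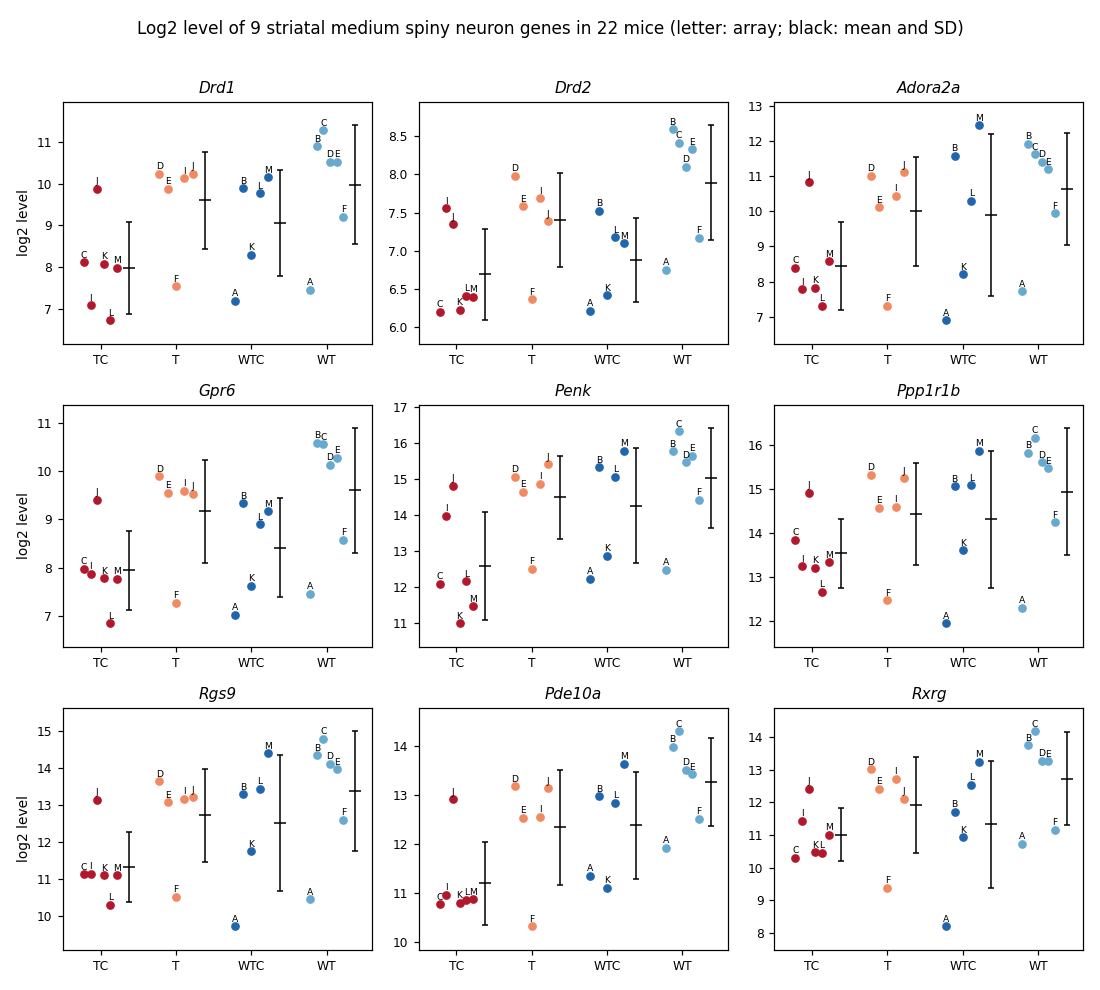
Log2 level of each gene (y axis) in the TC, T, WTC and WT mice (x axis); each point is 1 mouse with the letter of its array, and the black bar beside each group is its mean with the SD. For all 9 genes the T mouse of array F lies below the other 4 T mice, and the TC mouse of array J lies above the other TC mice for every gene but Drd2.

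Averaged over the 9 genes, each mouse had 1 level. It ran from 9.31 over 9.85 to 11.74 in TC mice, and from 9.29 to 12.15 in T mice, 8.98 to 12.42 in WTC mice and 9.70 to 13.07 in WT mice. Group means were 10.080 ± 0.859 in TC, 11.345 ± 1.165 in T, 11.004 ± 1.427 in WTC and 11.938 ± 1.295 in WT (SD, n = 6, 5, 5 and 6). Ordered by this mean, the 22 mice showed their widest step, 0.98 log2 units, between 10.12 and 11.09. Below it lay 9 mice, 5 of 6 TC, 1 of 5 T, 2 of 5 WTC and 1 of 6 WT, and above it 13. Every group thus had mice on both sides of this step. Neighbouring T, WTC and TC mice from 11.60 to 11.93 differed by at most 0.103 from the next in order, and do not stand apart from each other.

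The spread between mice of 1 group was wide for these genes. The median SD of the 9 genes was 0.84 in TC, 1.16 in T, 1.55 in WTC and 1.42 in WT mice, against medians over all 25999 features of 0.24, 0.13, 0.24 and 0.14. An SD above that of the 9 genes' median was found for 5.07% of all features in TC, 0.200% in T, 0.423% in WTC and 0.250% in WT mice. The TC group had the lowest median SD of the 9 genes although its features at large varied as much as those of WTC mice. This did not hold for each gene. The SD of Penk was 1.49 in TC, against 1.15 in T and 1.39 in WT mice. For Drd2 it was 0.60 in TC and 0.55 in WTC mice. The genes were chosen for low levels in TC mice, so their spread there is not independent of the choice.

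Within that spread the 9 genes kept together. Over the 22 mice, Pearson's r between 2 of them ran from 0.80 to 0.99 over the 36 pairs, with a median of 0.92. With each group centred on its own mean it ran from 0.77 to 0.99, with a median of 0.90. These values describe shared variation between mice, and the 2 mice of an array also share a hybridisation. Ppp1r1b and Rgs9 were the closest pair, at 0.99. Drd2 and Adora2a, which are both indirect pathway receptors, were the least alike, at 0.80, and each of the 3 lowest pairs held Drd2, the dimmest probe.

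Single mice departed from this common level. Each gene was centred on its mean over the 22 mice and set against the mean of the other 8. Penk was 1.80 log2 units below the others in the TC mouse of array K, 1.51 below in that of array M and 0.86 below in that of array C. In the TC mouse of array I it was 0.99 above, as was Drd2 by 1.46, whereas Drd1 was 1.23 and Adora2a 1.09 below. In T, WTC and WT mice Penk stayed between -0.22 and 0.57 of the others. The SD of this departure for Penk was 1.05 in TC mice, against 0.24 in T, 0.31 in WTC and 0.24 in WT mice (n = 6, 5, 5 and 6). The genes were centred and not scaled, so a gene with a narrow or wide range departs as the common level moves. Over the 22 mice the SD was 0.77 for Drd2, 1.78 for Adora2a and 1.63 for Penk. In WTC mice the SD of the departure was 1.08 for Drd2 and 1.07 for Adora2a, which cannot be equated with that of Penk. Drd2 was 1.23 above the others in the WTC mouse of array A, the lowest of its group in mean level. In the WTC mouse of array M, the highest, Drd2 was 1.65 below and Adora2a 1.56 above. Penk was 0.14 below in the TC mouse of array L, whose mean level was 9.31. Those of arrays K, M and C had 9.61 to 9.87. Pde10a was 1.31 and 1.14 above the others in the WTC and the WT mouse of array A, and between -0.45 and 0.39 elsewhere.

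The cryolesion in wild-type mice is the comparison that the choice of the genes did not use directly. Its WTC and WT mice were the controls of the comparisons that the choice did use. The fit over all 11 arrays also draws on arrays with T or TC mice, so its p-values are not independent of the choice. Without array K, which set a TC against a WTC mouse, the fitted median moved from -0.79 to -0.55. On arrays A and B, which set a WTC against a WT mouse, the log2 ratios of all 9 genes were below 0, with medians of -0.54 on array A and -1.01 on array B. Fitted over all 11 arrays, the WTC minus WT log2 ratio ran from -1.77 to -0.18, with a median of -0.79, while the median of all features was 0.003. All 9 ratios were below 0, as were 49.4% of those of all features, and 7 of 9 were below -0.5, as were 2.98%. None of the 9 passed an adjusted p of 0.05 (limma, Benjamini-Hochberg over all features), where 0.0231% of all features did, and none of those 6 features was lower. At an unadjusted p under 0.05, Drd2 and Rxrg passed, 2 of 9, where 19.5% of features passed in either direction and 6.91% as lower. A fit of the separate channels called 26.5% of the features, 12.2% as lower, and 1 of the 9, Drd2. With a slide term added to that fit, after seeing the data, 0 of the 9 were called. Every WT mouse sat on the first slide.

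Rxrg had the most negative WTC minus WT log2 ratio of the 9, -1.77 ± 0.56 (SE), the second lowest of all 25999 features, yet its adjusted p was 0.14 (limma). Its array ratios were -2.54 on A and -2.04 on B. A second Rxrg probe, as bright as the first, gave -0.44 ± 0.21, so the 2 probes of this gene disagree on size, and with both averaged the ratio was -1.11. Drd2 had -0.80 ± 0.27 (limma, adjusted p = 0.16), and in the separate-channel fit its ratio of -0.95 ± 0.33 passed with an adjusted p of 0.038. With the added slide term it had -1.055 and an adjusted p of 0.065 (limma).

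The other receptor genes had log2 ratios of -0.79 ± 0.57 for Drd1 (limma, adjusted p = 0.48), -0.59 ± 0.65 for Adora2a (0.66) and -0.90 ± 0.43 for Gpr6 (0.28). Penk had the smallest ratio, -0.18 ± 0.51 (limma, adjusted p = 0.88). Its sign turned to 0.02 with no dye term, to 0.01 without array B and to 0.09 without array C. Ppp1r1b had -0.44 ± 0.41 (limma, adjusted p = 0.59), Rgs9 -0.74 ± 0.56 (0.50) and Pde10a -0.89 ± 0.50 (0.37). The ratio of Drd1 was -0.49 without array I, and that of Adora2a was -0.33 without array I and -0.30 without array K. Penk ran from -0.38 without array M to 0.09 without array C, and Ppp1r1b had -0.22 without array B and -0.25 without array K. None of these 7 genes passed, and levels of WTC and WT mice overlapped. Levels that do not overlap, with WTC lower, were found for 0 of 9 genes and 7.21% of all features.

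The call depended on which arrays entered. Without arrays I, J and K, whose labels disagree, Drd2 (-0.99, adjusted p = 0.042) and Rxrg (-2.13, adjusted p = 0.018) passed. On the first slide alone, which holds both groups, Rxrg passed with -2.29 (adjusted p = 0.031). The number of all features called moved as well, to 1741 and 2128 in these fits. The second slide holds no WT mouse and gives no value.

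**Figure D2:**
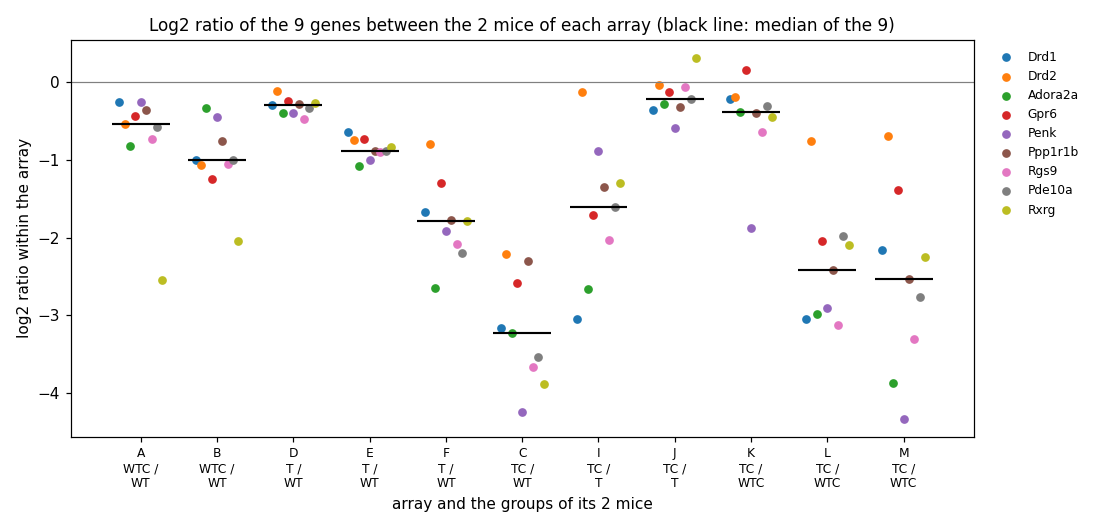
Log2 ratio between the 2 mice of each array (y axis) for the 9 genes (colours) on the 11 arrays (x axis). The dye effect of each probe was removed. The group on top of the ratio is named first, and the black line is the median of the 9. All points lie below 0 except Rxrg on array J (0.31) and Gpr6 on array K (0.16).

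The remaining comparisons describe the choice of the genes and are given with no test. T mice were set against WT mice on 3 arrays. The median log2 ratio of the 9 genes was -0.29 on array D, -0.89 on array E and -1.78 on array F. Fitted T minus WT ratios ran from -1.60 ± 0.46 for Penk to -0.84 ± 0.24 for Drd2, with a median of -1.37. All 9 lay below -0.5, as did 1.65% of features, and 0 of 9 had levels that did not overlap with T lower, as 0.273% of features did. The separate-channel fit gave a median of -0.90, and one of -0.42 when the T mouse on array F was left out, so this 1 mouse moves the value by more than 1.5 times.

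Between injured groups, array K gave a median log2 ratio of -0.38, array L -2.42 and array M -2.53. The TC minus WTC ratio was largest in size for Penk, -2.92 ± 0.45, followed by Adora2a with -2.42 ± 0.57, Rgs9 with -2.26 ± 0.49 and Drd1 with -1.91 ± 0.50. Drd2 had the smallest, -0.55 ± 0.23, and the median was -1.75. All 9 lay below -0.5, as did 4.12% of features, and 0 of 9 had levels that did not overlap with TC lower, as 0.246% of features did. On array K, Penk had -1.88 while the other 8 genes lay between -0.65 and 0.16. Both mice of that array lay below the widest step, with a mean level of 9.61 in the TC mouse and 10.09 in the WTC mouse.

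Within transgenic mice, array I gave a median log2 ratio of -1.60 and array J one of -0.22. TC minus T ratios ran from -1.78 ± 0.56 for Drd1 to -0.51 ± 0.26 for Drd2, with a median of -1.43. All 9 lay below -0.5, as did 3.07% of features, and 0 of 9 had levels that did not overlap with TC lower, as 2.8% of features did. With the channel 2 labels the median was -2.46, on the first slide alone it was -2.34 and on the second -0.91. Array I, with the TC mouse low in cortical markers, spread its ratios from -3.05 for Drd1 to -0.13 for Drd2. Without that mouse the separate-channel fit gave a median of -1.20, against -1.22 with it. Array C, the 1 array with a TC and a WT mouse, had ratios from -4.24 for Penk to -2.21 for Drd2. TC minus WTC and TC minus T share the TC mice, T minus WT shares its T mice with TC minus T, and WTC minus WT shares its mice with T minus WT and TC minus WTC.

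**Figure D3:**
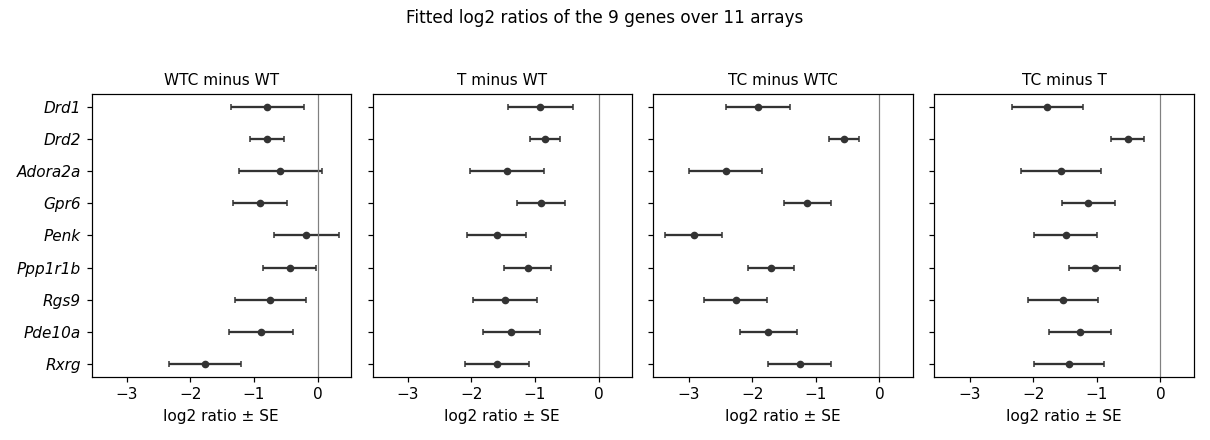
Fitted log2 ratio of each gene (points) with its SE (bars) in the comparisons WTC minus WT, T minus WT, TC minus WTC and TC minus T, over 11 arrays; a ratio below 0 is lower in the first group. Drd2 has the smallest ratio of the 9 in the last 3 panels, and Penk has the smallest in WTC minus WT and the largest in TC minus WTC.

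In the authors' deposited table, the same 9 probes had log fold changes from -2.03 to -0.90 for TC minus T and from -2.38 to -0.52 for TC minus WTC. For WTC minus WT the authors' deposited table gave -0.996 for Drd2, -0.76 for Gpr6, -0.65 for Rxrg, -0.64 for Pde10a and -0.37 for Penk. In the authors' deposited table Drd1 had -0.31, Rgs9 -0.16, Ppp1r1b -0.16 and Adora2a 0.12. The Rxrg, Drd1, Rgs9 and Ppp1r1b values are less than 0.5 of those fitted here, and the sign for Adora2a is opposite to the fit here, which had an SE larger than its ratio.

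Further probes were compared in a fit over all probes. The second bright Rgs9 probe had -2.21 ± 0.50 for TC minus WTC, against -2.26 ± 0.50 for the probe used. A dim probe for another Rgs9 transcript had -0.51 ± 0.17. The second Pde10a probe had -1.17 ± 0.34 against -1.75 ± 0.45 for the probe used, and another was well above background in 0 of 22 channels. For Rxrg the second probe had -0.33 ± 0.18 against -1.25 ± 0.50.

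A list of other medium spiny neuron genes held 32, all of them measured. Their median WTC minus WT log2 ratio was -0.53, with 30 below 0 and 2 above, and 0 passed in the main fit (limma). In the separate-channel fit 6 of 32 were called lower and 0 higher, where 12.2% of all features were called lower. Tac1, the substance P precursor of the direct pathway, had -0.80 ± 0.62. Adcy5, the adenylyl cyclase of the striatum, had -0.43 ± 0.32 and Gnal, the G protein subunit that couples D1 to it, had -0.79 ± 0.33. Scn4b, a sodium channel subunit, had -1.75 ± 0.58 and Isl1, a transcription factor of direct pathway neurons, had -0.87 ± 0.37. Ptpn5, a striatum-enriched phosphatase, had -0.47 ± 0.19, Foxp1 had -0.33 ± 0.30, the dynorphin gene Pdyn -0.12 ± 0.13 and the muscarinic receptor gene Chrm4 -0.09 ± 0.18. None of these 9 passed in the main fit, with adjusted p from 0.16 to 0.82 (limma), while Gnal (-0.86, adjusted p = 0.013) and Scn4b (-1.66, adjusted p = 0.046) were called in the separate-channel fit.

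Across mice, this wider list had a mean level of 9.98 ± 0.37 in TC, 10.66 ± 0.49 in T, 10.37 ± 0.61 in WTC and 11.01 ± 0.49 in WT mice (SD, n = 6, 5, 5 and 6). The same mice were low in it. Over the 22 mice the median r of its 32 genes with the mean of the 9 was 0.83, where the median over 16024 named features was 0.02 and the 95th percentile 0.53. Oprm1 (0.006), Chrm4 (0.04) and Ebf1 (0.08) did not follow, of which Oprm1 and Ebf1 were named after their values were seen. Among the 10 named features most like the mean of the 9 were Sh3rf2 (r = 0.98), Serpina9 (0.98), Rarb (0.97), Musk (0.95), Lhx8 (0.93), Cyp2a4 (0.93), Kcna5 (0.93), Ido1 (0.92) and Adcy5 (0.92). Sh3rf2, Rarb, Ido1 and Adcy5 were on the list of medium spiny neuron genes. Lhx8, a transcription factor of striatal cholinergic neurons, was on that of cholinergic genes. These lists were written with earlier results of these data known, so their likeness to the 9 genes is no independent check. At the other end were Pgf (-0.75), Dlg5 (-0.75), Lhfpl2 (-0.73), Impdh2 (-0.72) and Lpar4 (-0.71). The points are mice, 2 to an array, and no p is given.

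Most genes of another striatal cell type varied with the 9 genes. The median r of 8 genes of cholinergic interneurons with the mean of the 9 was 0.77, with 0.50 for Chat and, named after their values were seen, 0.53 for Ecel1 and -0.07 for Zic1. The 95th percentile of all named features was 0.53. Their WTC minus WT log2 ratios were all below 0, with a median of -0.68. In the main fit 0 of 8 passed (limma), and in the separate-channel fit 3 of 8 were called lower, where 12.2% of all features were. They included Slc5a7 (-1.46, adjusted p = 0.015), the choline transporter, and Slc18a3 (-1.26, adjusted p = 0.010), the vesicular acetylcholine transporter. Chat, the acetylcholine-making enzyme, had -0.11 in that fit (adjusted p = 0.85), and -0.52 ± 0.44 in the main fit (limma, adjusted p = 0.55).

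**Figure D4:**
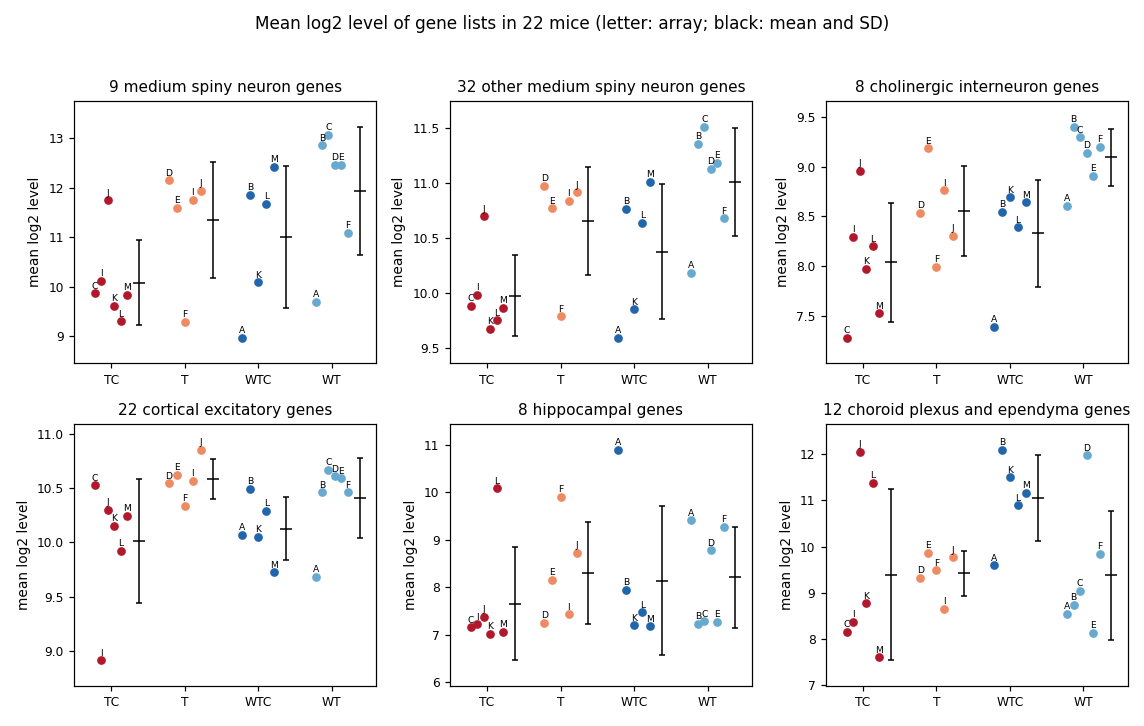
Mean log2 level (y axis) of 6 gene lists in TC, T, WTC and WT mice (x axis); each point is 1 mouse with the letter of its array and black bars are mean and SD. The 32 other medium spiny neuron genes place the same mice low as the 9 genes do, while the hippocampal genes are highest in the WTC mouse of array A (10.90), and the cortical genes lowest in the TC mouse of array I (8.91).

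Markers of the hippocampus, a tissue next to the cortex, were high in some of the mice where the 9 genes were low. The hippocampus lies under the rear part of the cortex and the striatum under the front part. In each group, the mouse with the lowest mean of the 9 genes had the highest mean of 8 hippocampal genes. This level was 10.08 in the TC mouse of array L, where the other TC mice had 7.02 to 7.39, and 9.91 in the T mouse of array F, against 7.25 to 8.73 in the others. In the WTC mouse of array A it was 10.90, against 7.18 to 7.95, and in the WT mouse of array A 9.41, against 7.24 to 9.28. The WT mouse of array F, with the second lowest mean of the 9 genes in WT, had the second highest hippocampal level. The TC mice of arrays C, I, K and M and the WTC mouse of array K had low levels of the 9 genes with hippocampal levels of 7.02 to 7.23, near the lowest found.

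The hippocampal list had 3 of its 8 genes well above background in all channels, and its median r with the mean of the 9 was -0.44. Thalamic genes were highest in the WT mice of arrays A and F (11.36 and 10.90) and the TC mouse of array L (10.83), and their median r was -0.25. Cortical excitatory genes had a median r of 0.29. Their mean level was 8.91 to 10.53 in TC, 10.34 to 10.86 in T, 9.73 to 10.50 in WTC and 9.68 to 10.67 in WT mice. Genes of choroid plexus and ependyma, which line the ventricle beside the striatum, had 7.60 to 12.06 in TC, 8.65 to 9.86 in T, 9.59 to 12.11 in WTC and 8.13 to 11.98 in WT mice, with a median r of 0.15. All 12 of these genes had log2 ratios above 0 in WTC minus WT (median 1.86) and below 0 in TC minus WTC (median -1.98), where the 9 genes had medians of -0.79 and -1.75. Their part in the ratios of the 9 genes was not tested. GABA interneuron genes had a median r of 0.31 and myelin genes one of 0.11. The part that the borders of the dissected tissue play in the group differences of the 9 genes was not tested.

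Reactive astrocyte genes had a mean level of 10.22 to 12.97 in TC and 9.39 to 9.63 in T mice, and of 11.86 to 12.91 in WTC and 8.92 to 9.55 in WT mice, so that injured and intact mice did not overlap. Of the mice with disputed labels, the TC mouse of array K had 12.97, the T mouse of array J 9.39 and the TC mouse of array I 10.22. The median r of reactive astrocyte genes with the mean of the 9 was -0.33. Microglia and macrophage genes had a median r of -0.16, and in them injured and intact mice overlapped. The TC mouse of array I had 11.33, within the 11.18 to 11.39 of T mice. The other TC mice had 12.50 to 13.48 and WTC mice 12.91 to 13.59. The TC mouse of array J and the WTC mouse of array M, the highest of their groups in the 9 genes, are labelled as injured like the low ones of those groups. The part of injury in this spread between mice was not tested.

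**Figure D5:**
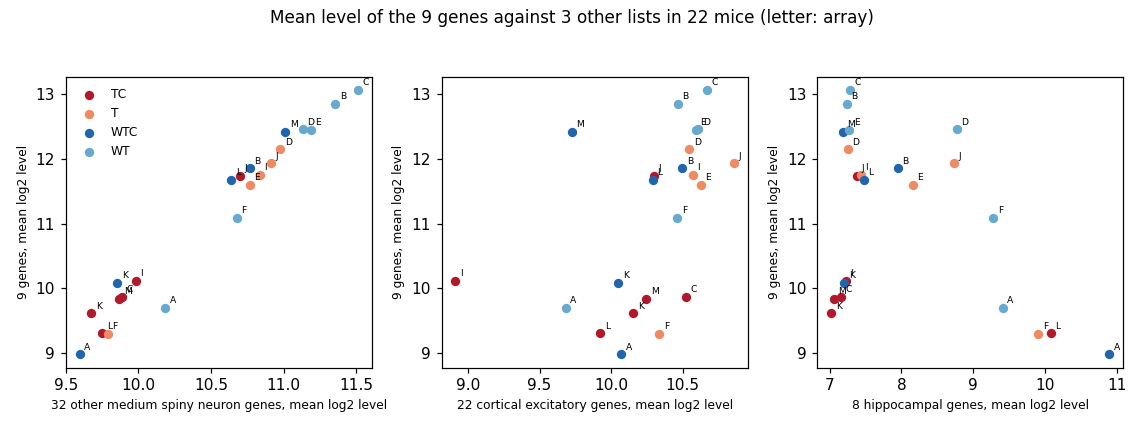
Mean log2 level of the 9 genes (y axis) against that of 32 other medium spiny neuron genes, 22 cortical excitatory genes and 8 hippocampal genes (x axes) in 22 mice, coloured by group, with the letter of the array. The 9 genes follow the other medium spiny neuron genes, and mice with hippocampal levels above 9 include the lowest mouse of each group.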

How the data were processed

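For 11 arrays the authors deposited what Feature Extraction 10.7.3.1 made of the scans, per the file headers. Each spot and its local background have a linear intensity (median pixel brightness), not background-subtracted or normalized by the authors, per the file headers. The deposited LogRatio, a log10 ratio of red over green signal per the file headers, served as an alternative. A table by the authors gives deposited log2 fold changes (log base not stated, taken from limma's usual output, which the submitters' processing notes name) and adjusted p-values. Its fold change columns were read. The version of limma behind it is not stated in the sources used here. Of its cells, 766 WTC minus WT adjusted p-values exceed 1, and that column was not read. No genome build applies to the intensities.

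From these, background was corrected with normexp (offset 50) and ratios normalized by loess within each array in limma 3.58.1 under R 4.3.3, with control and outlier spots at weight 0. Spots of a probe were averaged. Of 55681 probes, 26762 (48.1%) matched 1 symbol through their RefSeq accession. A probe was kept if 5 or more of the 22 channels had it well above background, then the brightest per gene. This left 25999 features, 16033 of them with a symbol. No spot was saturated. Per channel, 56.6% to 65.3% of spots passed as well above background. Precision is limited by how few arrays there are.

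The fit (lmFit, then eBayes) had a coefficient per group other than WT and one for the dye (7 residual degrees of freedom, two-sided, Benjamini-Hochberg over all features). Only WTC minus WT was tested for the genes described. Every channel is a separate mouse, so p-values measure the spread between mice. Levels are Aquantile-normalized channel values without the dye effect. The separate-channel fit used an intraspot correlation of 0.318. The fit was tested on simulated data.

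The 9 genes, the marker lists and the alternatives were chosen with earlier results of these data known. Named besides the 9 were the first genes of each list and the features highest and lowest in correlation with the mean of the 9. Array letters follow the deposited files. A few of these named genes are not reported here.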

Additional observations from a re-analysis of the deposited data

Results flagged for a closer look

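Of 40 groups of levels examined (9 genes and their mean in 4 groups), 13 held a mouse whose gap to its nearest neighbour took up an unusual part of the group's range. Chance gives about 1 in 20 groups, and the genes vary together, so these are not separate events. The T mouse of array F stood below the other 4 T mice in 9 of them. Its log2 level was 7.54 for Drd1, 7.30 for Adora2a, 7.27 for Gpr6, 12.50 for Penk, 12.47 for Ppp1r1b, 10.52 for Rgs9, 10.31 for Pde10a and 9.38 for Rxrg, and 9.29 for the mean of the 9. Its hippocampal genes, at 9.91, were the highest of the T mice. The TC mouse of array J stood above the other 5 TC mice in 4 of them, with 10.83 for Adora2a, 13.15 for Rgs9, 12.91 for Pde10a and 11.74 for the mean of the 9. The channel 2 label of that array disagrees with the title for the other mouse it carried.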

How the results depend on the processing

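Of 950 ratios of single genes recomputed under 27 alternatives, 3 changed sign, all of them Penk for WTC minus WT (0.0196 with no dye term, and -0.377 to 0.0858 over arrays left out in turn, above 0 without array B or C). Leaving out each array in turn gave median ratios of the 9 genes from -0.95 to -0.55 for WTC minus WT, -1.70 to -1.06 for T minus WT, -2.26 to -1.41 for TC minus WTC and -1.96 to -1.09 for TC minus T. With the channel 2 labels the TC minus T median was -2.46. Of the 9 genes, 0 were called for WTC minus WT in the main fit and without any 1 array, 1 in the separate-channel fit and in those without the T mouse of array F or the TC mouse of array I (both added after seeing the data), 0 in the separate-channel fit with an added slide term, 2 without arrays I, J and K and 1 on the first slide. The number of all features called, 6 in the main fit, was 1 with Feature Extraction log ratios, with no dim-probe filter, with the mean of all probes and with slide as a random block, 0 with median centring and with the channel 2 labels, and 50 with probes above background in all channels. It was 6893 in the separate-channel fit, 6601 without the T mouse of array F, 8386 without the TC mouse of array I, 3347 with an added slide term, 1741 without arrays I, J and K and 2128 on the first slide. Leaving out 1 array gave 0 to 1558, with 1433 without array I, 1558 without array K and 10 without array D. The cause of these shifts was not tested. No paired analysis was possible because mice carry no shared replicate numbers across groups beyond the pairing on arrays, which the ratio fit already uses. Drd2, well above background in 19 of 22 channels, is the gene that signal limits most.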
